A study of Mus musculus with 8 samples.

Results

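Leukocyte adhesion molecules other than ICAM-1, ICAM-2 and the integrin LFA-1 were followed in cells sorted from lymph nodes: the receptor pair Cd2 and Cd48, the integrin chains Itga4 and Itgb1 with their ligand Vcam1, the junction molecule Pecam1, the selectin ligand Selplg, the hyaluronan receptor Cd44 and the tetraspanin Cd82. They were chosen by name, with earlier results of these data known. All 9 were found among the 10412 genes of the deposited table. Each of the 9 was kept by the filter on low counts, which left 8616 genes to be tested.

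Transcripts were counted by bulk MARS-seq, which reads the 3′ ends of poly(A) RNA and tags each captured molecule with a unique molecular identifier (UMI), so values are counts of molecules per gene. All samples came from popliteal lymph nodes of C57BL/6 chimeric mice aged 16 weeks, 8 weeks after the transplant, with cells sorted by CD45, CD11c and MHC-II. Chimeras carry the label WT/WT, here WT, or the label ICAM-1/2 DKO/WT, here DKO, and either received nothing (resting) or had 10 µg of a CD40 antibody, which targets an activating receptor of antigen-presenting cells, injected into the footpad (activated). Each of the 4 groups had 2 libraries. The labels do not say which compartment of a chimera each side of the label names, what recipient cells remained, which parts of Icam1 and Icam2 were deleted, or whether the libraries of a group stem from different animals. The p-values therefore reflect the spread between libraries alone, and that spread may be technical.

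Adhesion molecules let leukocytes stop on vessel walls, cross them and hold on to each other. Selectins bind sugar-bearing mucins such as PSGL-1 (encoded by Selplg) and slow the cell, integrins such as the α4β1 pair then bind immunoglobulin-family ligands such as VCAM-1, and PECAM-1 acts at the junctions between endothelial cells. In the contact between a T cell and an antigen-presenting cell, ICAM-1 and LFA-1 are the textbook pair, and in the mouse CD2 on the T cell also binds CD48 on its partner. The comparisons ask how these other molecules change with CD40 activation, and whether they differ where the ICAMs are lacking.

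The libraries held 401984 to 1294777 UMIs and 9801 to 10369 detected genes, so that 3 UMIs, taken as the floor, correspond to 2.11 to 7.16 CPM (counts scaled to a common library size). Icam1, lost by design in DKO, had 123 to 432 CPM over the WT and 9.49 to 38.5 CPM over the DKO libraries. Icam2 overlapped between genotypes at rest, at 199.5 and 219 CPM in WT and 230.0 and 135 CPM in DKO, and 3′ counts outside a deleted part do not check a genotype. Resting libraries are labelled classical dendritic cells and activated libraries activated dendritic cells, and these labels were only partly borne out by markers. Dendritic cell markers summed to 34673 to 42434 CPM in every library, mostly MHC class II genes, but Flt3 stood at 4.01 to 30.9 CPM, Itgax at 16.1 to 43.0 CPM and Zbtb46 at 0 to 10.3 CPM. B cell markers were present throughout, with Cd79b at 2415 to 4392 CPM, so the material is called sorted lymph node cells below.

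Promoter windows are shown for 3 genes that changed with activation and had an entry in the RefSeq table of GRCm38.p6, the build called mm10 in the submitters' processing notes. Each runs from 250 bases before to 50 bases after an annotated start, 5′ to 3′ on the strand of the gene. Capitals mark matches to the motifs searched. Cd44 (minus strand, chr2:102901616-102901915) and Itga4 (plus strand, chr2:79255176-79255475) each hold a GC box, GGGCGG, beginning at position 4 and −114 from the start. The Cd82 window (minus strand, chr2:93461802-93462101), 1 of 4 annotated for that gene, holds the ETS core GGAAGT at −223 and its reverse complement ACTTCC at −115; of the other Cd82 windows 2 hold GC boxes and none holds the ETS core.
Cd44: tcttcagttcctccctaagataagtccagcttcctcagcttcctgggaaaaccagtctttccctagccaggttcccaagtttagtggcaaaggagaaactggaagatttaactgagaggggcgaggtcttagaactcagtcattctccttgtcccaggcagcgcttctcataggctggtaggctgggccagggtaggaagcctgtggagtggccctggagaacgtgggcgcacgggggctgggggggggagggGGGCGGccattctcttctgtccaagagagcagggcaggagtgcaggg
Itga4: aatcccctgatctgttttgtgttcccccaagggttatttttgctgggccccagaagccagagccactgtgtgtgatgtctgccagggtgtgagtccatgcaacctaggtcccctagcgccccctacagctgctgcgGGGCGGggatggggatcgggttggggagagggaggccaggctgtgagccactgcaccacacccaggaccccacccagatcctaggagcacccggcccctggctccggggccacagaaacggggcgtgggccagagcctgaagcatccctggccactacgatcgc
Cd82: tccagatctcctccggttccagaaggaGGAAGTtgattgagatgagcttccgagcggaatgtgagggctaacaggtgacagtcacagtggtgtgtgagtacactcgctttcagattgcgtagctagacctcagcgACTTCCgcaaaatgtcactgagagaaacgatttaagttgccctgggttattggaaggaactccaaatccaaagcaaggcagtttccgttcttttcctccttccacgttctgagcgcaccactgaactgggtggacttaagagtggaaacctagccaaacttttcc

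Both strands were searched, and motifs may overlap. Windows matched 5 of the 9 genes (Cd44, Cd48, Cd82, Itga4 and Itgb1, with 8 windows). Among all 32851 windows of the table, 35.7% hold a GC box, 23.8% the ETS core, 7.81% the AP-1 motif TGANTCA, 4.51% the NF-kB consensus and 3.44% the paired GAAA motif, a pair of GAAA repeats separated by 2 bases. The last 3 motifs have no match in the 8 windows of these genes. A match is a description of the letters and not a binding site.

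Activation moved most of these genes, in both directions. Over both genotypes, 7 of the 9 were called (edgeR quasi-likelihood test, Benjamini-Hochberg adjusted p under 0.05), against 29.7% of all genes tested: Vcam1, Cd82 and Cd44 rose, and Cd2, Itga4, Pecam1 and Selplg fell. Their median log2 fold change was −0.28 and the median size of the change was 0.70, against −0.01 and 0.44 over all genes tested. As the 9 were chosen with earlier results known, these shares cannot test whether adhesion genes respond more than others. In CPM, 2 of the 9 were higher in every activated than in every resting library and 4 were lower, where 14.9% of all genes were higher and 13.0% lower in this way. Within WT 2 were higher and 6 lower in both activated libraries, against 29.3% and 29.9% of all genes, and within DKO 3 were higher and 4 lower, against 27.9% and 26.1%. In bulk samples, fewer cells of a type and less RNA per cell cannot be told apart, and this holds for each change below.

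**Figure D1:**
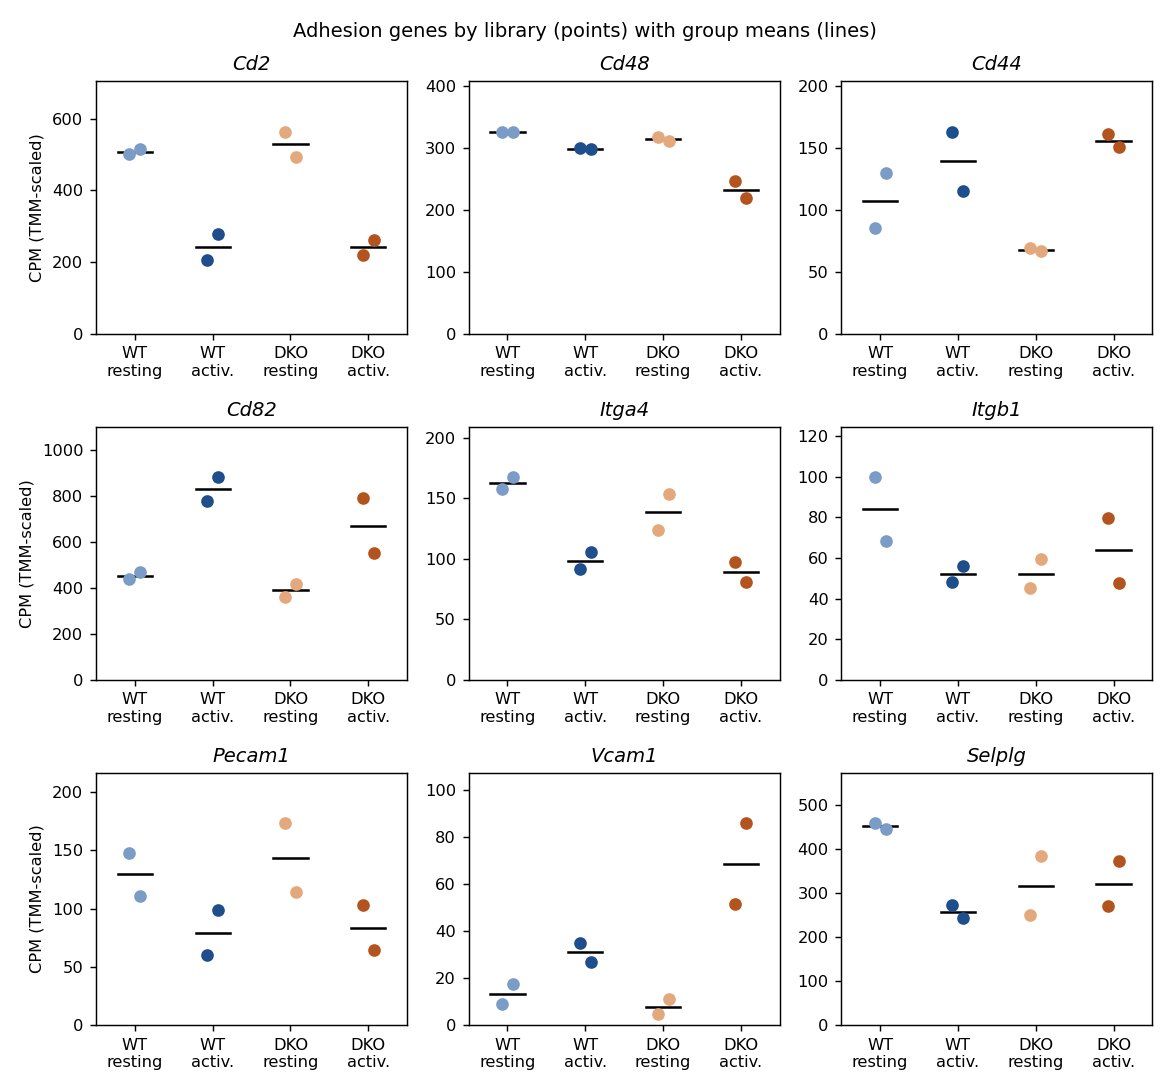
CPM of the 9 adhesion genes in each of the 8 libraries (points) with the mean of each group of 2 (lines), each panel on its own axis from 0. Cd2, Cd48, Itga4 and Pecam1 lie lower in all 4 activated than in all 4 resting libraries, and Cd82 and Vcam1 lie higher.

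Cd2 (ENSMUSG00000027863.8, chromosome 3, 101275899 to 101287939, GRCm38) encodes the CD2 receptor of T and NK cells, which mouse B cells also carry. Its libraries read 501 and 516 CPM in the WT resting pair and 564 and 493 CPM in the DKO resting pair, then 206 and 278 CPM in the WT activated pair and 221 and 262 CPM in the DKO activated pair. The resting and activated libraries were far apart, while the genotypes overlapped in each state. Cd2 fell by 1.07 ± 0.20 (log2, SE) in WT with an edgeR adjusted p of 3.17e-04, and by 1.13 ± 0.21 in DKO with an edgeR adjusted p of 2.64e-04. Both calls held in every alternative run.

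Cd48 (ENSMUSG00000015355.13, chromosome 1, 171682009 to 171705258) encodes the ligand of CD2, a lipid-anchored protein found on most leukocytes. At rest the WT libraries had 327 and 326 CPM and the DKO libraries 318 and 312 CPM, and after activation they had 299.8 and 298 CPM and 247 and 219.5 CPM. No 2 groups overlapped, and the order from high to low was WT resting, DKO resting, WT activated and DKO activated. The differences were small: activated minus resting was −0.13 ± 0.19 in WT and −0.43 ± 0.20 in DKO, with edgeR adjusted p of 0.727 and 0.163. The ligand was thus not called in any comparison, while its receptor gene was called in both genotypes; the difference between the genes was not tested.

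Itga4 (ENSMUSG00000027009.18, chromosome 2, 79255426 to 79333123) encodes the α4 chain, which pairs with β1 to bind VCAM-1 and with β7 to bind MAdCAM-1. Resting WT libraries gave 157 and 167 CPM and resting DKO libraries 123 and 153 CPM, while activated WT libraries gave 91.2 and 105 CPM and activated DKO libraries 97.7 and 81.1 CPM. All resting libraries were above all activated ones. Over both genotypes Itga4 fell by 0.67 ± 0.17 with an edgeR adjusted p of 0.00354, and this call held in every alternative run. In WT alone the change was −0.72 ± 0.23 with an edgeR adjusted p of 0.0356, and the call was lost in DESeq2 and on leaving out any 1 of the 4 WT libraries (−0.83 to −0.62, adjusted p 0.0815 to 0.253). The 3′ end of Itga4 overlaps the antisense gene Cerkl, which was not among the rows analysed. As the sources used here do not give the strand setting of the counting, reads of the pair cannot be told apart.

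Itgb1 (ENSMUSG00000025809.15, chromosome 8, 128685654 to 128733200) encodes the β1 chain, the shared partner of many integrin α chains. Its libraries read 99.8 and 68.2 CPM in the WT resting pair and 45.1 and 59.4 CPM in the DKO resting pair, then 48.2 and 56.2 CPM in the WT activated pair and 79.7 and 47.7 CPM in the DKO activated pair. Both WT resting libraries stood above the DKO resting and WT activated ones, and the DKO activated pair spread across the range. The fitted activation differences were −0.71 ± 0.30 in WT and 0.30 ± 0.34 in DKO, with edgeR adjusted p of 0.118 and 0.611. The DKO value turned to −0.17 without DKO activated library 1. With 1 library left out the WT value ran from −0.94 to −0.40, and limma-voom called it (adjusted p 0.0495).

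Vcam1 (ENSMUSG00000027962.14, chromosome 3, 116109949 to 116129688) encodes the α4β1 ligand, best known from activated endothelium and also made by stromal cells and some macrophages. It was counted with 13 and 13 UMIs in WT resting, 2 and 9 in DKO resting, 27 and 22 in WT activated and 40 and 36 in DKO activated libraries. These are 9.13 and 17.4, 4.74 and 11.1, 35.2 and 26.9, and 51.4 and 85.9 CPM in the same order. Every activated library was above every resting one, and both DKO activated libraries were above both WT activated ones.

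Vcam1 had the largest fitted change of the 9 genes, a rise of 2.11 ± 0.35 over both genotypes with an edgeR adjusted p of 3.10e-05. In DKO it rose by 2.91 ± 0.52 with an edgeR adjusted p of 2.07e-04, and both calls held in every alternative run. In WT the difference was 1.30 ± 0.47 with an edgeR adjusted p of 0.0603, or 0.81 to 1.73 with 1 library left out, and it was called in limma-voom (adjusted p 0.0165), in the fit of the 4 WT libraries alone (0.0460) and in the fit without both libraries of lowest depth (0.0394). As a ratio of summed, depth-scaled UMIs, activated over resting was 2.58 in WT (exact 95% interval 1.57 to 4.33) and 7.10 in DKO (3.75 to 14.8), intervals that cover counting error only. Markers of stromal and endothelial cells could not be set beside Vcam1, since 0 of the 16 listed were among the rows analysed, and the sort on CD45 selects leukocytes. Monocyte and macrophage markers, like Vcam1, were higher in activated libraries and highest in DKO activated ones. Of the 17 listed, 13 were present. They summed to 2349 to 2702 CPM in WT resting, 3096 to 3099 CPM in DKO resting, 5277 to 6049 CPM in WT activated and 11927 to 15734 CPM in DKO activated libraries. At rest the sums were higher in DKO, whereas mean Vcam1 was lower in DKO (7.94 against 13.3 CPM, with overlapping libraries). The part of these markers in the Vcam1 result was not tested.

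Pecam1 (ENSMUSG00000020717.19, chromosome 11, 106654217 to 106750628) encodes a receptor that binds itself across cell junctions and is carried by endothelium, platelets and many leukocytes. At rest the WT libraries had 148 and 111 CPM and the DKO libraries 173 and 114 CPM, and after activation they had 60.0 and 99.0 CPM and 103 and 64.4 CPM. The states did not overlap, but the libraries of each group lay far apart. Over both genotypes Pecam1 fell by 0.70 ± 0.20 with an edgeR adjusted p of 0.00920. That call was lost without WT resting library 1 (−0.61), DKO resting library 1 (−0.57), WT activated library 1 (−0.55), DKO activated library 2 (−0.58) or both of the shallowest libraries (−0.45), where the adjusted p ran from 0.0518 to 0.145. In the separate genotypes it was −0.71 ± 0.28 and −0.70 ± 0.30, neither called (edgeR adjusted p 0.0859 in WT and 0.115 in DKO), though the WT change was called in limma-voom (adjusted p 0.0241) and without both of the shallowest libraries (0.0450). With 1 library left out they ran from −1.12 to −0.40 and from −1.12 to −0.42.

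Selplg (ENSMUSG00000048163.13, chromosome 5, 113818536 to 113832644) encodes PSGL-1, the mucin that carries selectin-binding sugars. Resting WT libraries gave 458 and 444 CPM and resting DKO libraries 249 and 384 CPM, while activated WT libraries gave 272 and 243 CPM and activated DKO libraries 269.8 and 372 CPM. The WT resting libraries were above all others, and the other 6 overlapped. In WT it fell by 0.81 ± 0.21 with an edgeR adjusted p of 0.00876, a call lost without WT resting library 1 (−0.80, adjusted p 0.0702), WT activated library 1 (−0.89, 0.0579) or WT activated library 2 (−0.73, 0.131). In DKO the value was −0.02 ± 0.22 with an edgeR adjusted p of 0.972. The mean over both genotypes, −0.41 ± 0.15 with an edgeR adjusted p of 0.0409, lost its call in 7 of 13 alternatives: in DESeq2 (adjusted p 0.0763) and without WT resting library 1 or 2, DKO resting library 2, WT activated library 1 or 2, or DKO activated library 1, with values from −0.45 to −0.24.

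Cd44 (ENSMUSG00000005087.17, chromosome 2, 102811141 to 102901665) encodes the main receptor for hyaluronan, a sugar polymer of the tissue matrix, and is a common mark of activated lymphocytes. Its GC box lies just past the start printed above. Its libraries read 85.0 and 129.8 CPM in the WT resting pair and 68.8 and 66.8 CPM in the DKO resting pair, then 163 and 115 CPM in the WT activated pair and 161 and 150.3 CPM in the DKO activated pair. The WT states overlapped, and the DKO states did not. In DKO Cd44 rose by 1.20 ± 0.28 with an edgeR adjusted p of 0.00317. In WT the difference was 0.40 ± 0.25 with an edgeR adjusted p of 0.319 (0.0822 to 0.69 with 1 library left out), and over both genotypes it rose by 0.80 ± 0.19 with an edgeR adjusted p of 0.00159. The DKO call and the call over both genotypes held in every alternative run.

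Cd82 (ENSMUSG00000027215.13, chromosome 2, 93419111 to 93463140) encodes a tetraspanin, a membrane organiser known to associate with integrins and MHC class II molecules. At rest the WT libraries had 436 and 467 CPM and the DKO libraries 360.5 and 416 CPM, and after activation they had 778 and 879 CPM and 788 and 551 CPM. Every activated library was above every resting one. Cd82 rose by 0.88 ± 0.19 in WT with an edgeR adjusted p of 0.00185 and by 0.79 ± 0.20 in DKO with an edgeR adjusted p of 0.00612. The WT call was lost without WT activated library 2 (0.79, adjusted p 0.0526), and the DKO call without DKO resting library 1 (0.67, 0.0755) or DKO activated library 1 (0.50, 0.138). Over both genotypes the rise of 0.83 ± 0.14 had an edgeR adjusted p of 2.53e-05 and held in every alternative run.

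**Figure D2:**
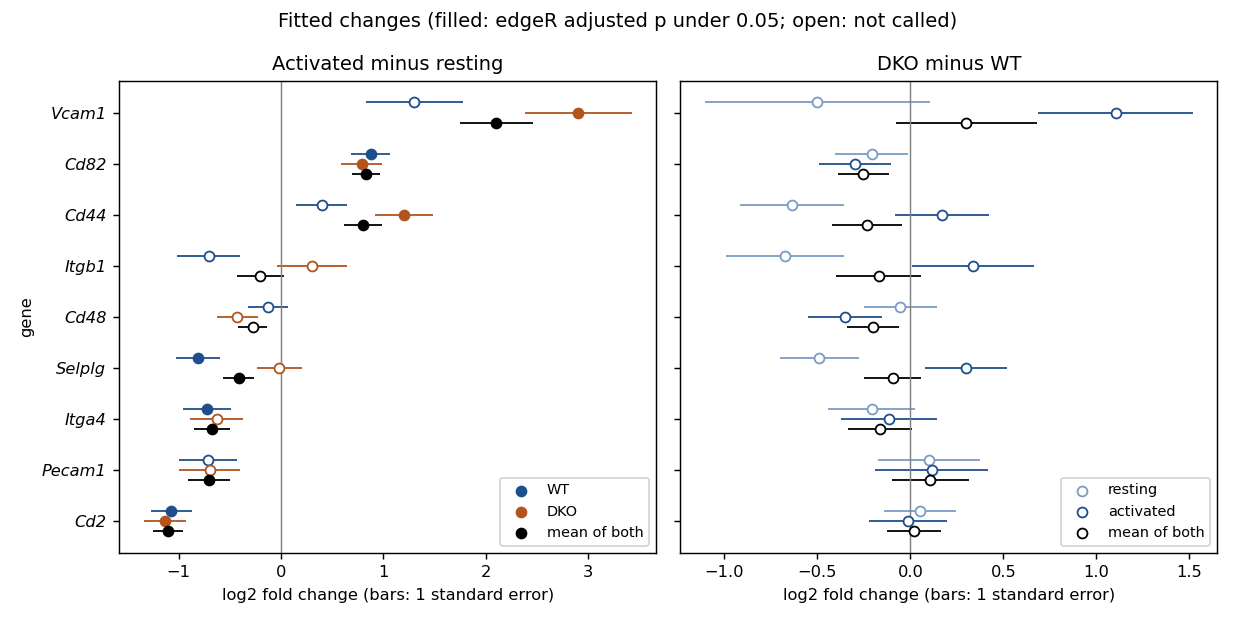
Fitted log2 fold changes with 1 standard error for activated minus resting (left) and DKO minus WT (right), filled where the edgeR adjusted p was under 0.05. Filled points appear only on the left, from −1.13 for Cd2 to 2.91 for Vcam1, both in DKO.

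Counted by genotype, 4 of the 9 genes were called on activation in WT (Cd82 higher, and Cd2, Itga4 and Selplg lower), against 14.4% of all genes (8.44% higher and 5.92% lower). In DKO 4 were called (Vcam1, Cd44 and Cd82 higher and Cd2 lower), against 15.3% of all genes (9.02% higher and 6.33% lower). The WT count was 1 to 4 when 1 library was left out and 7 in limma-voom, and the DKO count was 3 to 4. Without WT activated library 2, Cd2 alone was called in WT, and without WT resting library 1 or WT activated library 1 the count was 2. In the authors' deposited table, Cd2, Cd82 and Selplg were called in WT and Cd2, Cd44, Cd82 and Vcam1 in DKO, and the sign was that of the edgeR value for all 9 genes in each comparison.

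Between genotypes none of the 9 genes was called. At rest, DKO libraries were below WT libraries for 6 of the 9 (Cd48, Cd44, Cd82, Itga4, Itgb1 and Selplg), where 17.4% of all genes were lower in this way. An unadjusted p under 0.05 was found at rest for 3 of the 9 genes, against 5.20% of all genes tested (448). The fitted values of these 3 were −0.67 ± 0.32 for Itgb1, −0.64 ± 0.28 for Cd44 and −0.49 ± 0.21 for Selplg. With 1 library left out these ran from −0.92 to −0.35, from −0.93 to −0.32 and from −0.86 to −0.22. T cell markers were also lower in DKO at rest, with 3 of 14 called and a median of −0.53, and their part in these values was not tested. The edgeR adjusted p of the 9 genes was 0.914 to 0.999, and 0 were called against 0.162% of all genes (14). After activation the groups did not overlap for Vcam1, higher in DKO, and for Cd48, lower in DKO, where 32.8% of all genes did not overlap. DKO minus WT was then 1.10 ± 0.42 for Vcam1, with an unadjusted p of 0.0126 and an edgeR adjusted p of 0.764, with 0.73 to 1.47 when 1 library was left out, and the counting ratio was 2.05 (exact 95% interval 1.42 to 3.0). Monocyte and macrophage markers were then higher in DKO as well, with 2 of 12 called and a median of 0.97, and their part in the Vcam1 difference was not tested. No gene of the 9 was called after activation, against 0.174% of all genes (15), or over both states, against 0.209% (18). Over both states 0 of the 9 had an unadjusted p under 0.05, against 5.65% of all genes. DESeq2 and limma-voom also called 0 of the 9 in each genotype comparison.

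Whether activation acted differently in the genotypes was tested by the interaction, in which edgeR called 0 of the 9 genes, and 0% of all genes. An unadjusted p under 0.05 was found for 397 genes, 4.61% of those tested, and DESeq2 and limma-voom also called 0. Among the 9 genes, 4 had an unadjusted p under 0.05, each with a more positive change in DKO: Vcam1 by 1.60 ± 0.73, Itgb1 by 1.01 ± 0.46, Cd44 by 0.81 ± 0.38 and Selplg by 0.79 ± 0.31. With 1 library left out they ran from 1.16 to 2.45, from 0.54 to 1.28, from 0.49 to 1.10 and from 0.51 to 1.15. Of these, Itgb1, Cd44 and Selplg also had an unadjusted p under 0.05 between genotypes at rest. Both comparisons use the same resting libraries, so the counts are not separate observations. The edgeR adjusted p of all 4 interactions was 0.997. A call in 1 genotype and not in the other, as for Cd44, Vcam1, Selplg and Itga4, is therefore not shown to be a difference between them.

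Among related genes, 8 lists on adhesion named 130 genes, of which 97 were rows of the table and 87 were tested. These lists too were chosen with earlier results of these data known. Over both genotypes 15 rose and 24 fell, against 16.3% and 13.4% of all genes (29.7% in either direction). The counts of each list below are over both genotypes and stand against the same shares. The median of the 87 was −0.17, against −0.01 over all genes. In WT 4 were higher and 15 lower, against 8.44% and 5.92% of all genes, and in DKO 8 were higher and 11 lower, against 9.02% and 6.33%. One listed gene, Itgax, is also a dendritic cell marker.

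The other integrin chains had 3 lower and 0 higher of 8 tested. Itgb7, the alternative partner of the α4 chain, fell by 0.95 ± 0.15 (edgeR adjusted p 9.85e-06), with −0.94 in WT and −0.96 in DKO. Itgae, the chain that binds E-cadherin as a pair with β7, fell by 0.83 ± 0.23, and Itga6, a laminin-binding chain, fell by 1.20 ± 0.41. The Itga6 call (edgeR adjusted p 0.0268) was lost in 8 of 13 alternatives: in DESeq2 (0.0722), limma-voom (0.0690), without both of the shallowest libraries, and without WT resting library 2, DKO resting library 1 or 2, WT activated library 2 or DKO activated library 2. The Itga6 value was −2.04 without DKO activated library 1. DKO activated library 2, then alone in its group, read 2.39 CPM, under its floor of 7.16 CPM. Genes listed under integrin activation and linkage were not sorted by the direction of their effect. Of these, 6 fell and 3 rose of 20. Rasgrp2, which activates the small GTPase Rap1 upstream of integrins, fell by 2.29 ± 0.19 (edgeR adjusted p 7.61e-11), with −2.22 in WT and −2.37 in DKO. Rassf5, a Rap1 effector, fell by 0.81 ± 0.19, as did Cytip, a cytohesin-binding protein, by 0.81 ± 0.17.

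The relatives of Cd2 and Cd48 in the SLAM family had 4 higher and 1 lower of 7, with a median of 0.68, a direction other than that of Cd2. Slamf9 rose by 2.07 ± 0.40, with 0.85 in WT and 3.28 in DKO, Ly9 rose by 0.68 ± 0.14, and Cd84 fell by 1.04 ± 0.19. Slamf9 was counted low: DKO resting libraries 1 and 2 read 2.37 and 6.19 CPM, with floors of 7.11 and 3.71 CPM. Of other immunoglobulin-family and junction molecules, 3 rose and 5 fell of 15. Icam1 rose by 1.56 ± 0.23, while Icam2 fell by 1.08 ± 0.19 and Ceacam1, a homophilic receptor, fell by 1.93 ± 0.33. The Icam1 value averages 1.51 in WT and 1.62 in DKO, where the gene was lost by design and read 9.49 to 38.5 CPM. Its DKO call was lost in 5 of 14 alternatives. The selectins and sialomucins had 3 lower and 0 higher of 4. Among them Cd24a, a P-selectin ligand, fell by 1.26 ± 0.21, and Spn, the mucin CD43, fell by 0.70 ± 0.19.

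The other tetraspanins had 5 higher and 3 lower of 16. Among them Tspan33 was counted low, with WT resting library 2 at 2.68 CPM, under its floor of 4.01 CPM. Cd63, found in late endosomes, rose by 1.13 ± 0.21, Tspan3 by 0.88 ± 0.20 and Tspan33 by 1.39 ± 0.39, the last not called without both libraries of lowest depth (1.04) and at 2.42 without WT resting library 1. The tetraspanin count fell from 8 to 3 in DESeq2 and to 3 without WT activated library 1 or 2, to 4 without WT resting library 2, and to 5 without DKO resting library 1 or DKO activated library 1. The immunoglobulin-family count fell from 8 to 5 without WT resting library 1, WT activated library 1 or DKO activated library 2. Of the cytoplasmic partners of CD2, CD44 and PSGL-1, 1 of 8 was called: Pstpip1, which binds the tail of CD2, fell by 0.52 ± 0.17, a call lost without WT activated library 1 (−0.40) or DKO activated library 1 (−0.48). Of enzymes and transporters for the sugars of PSGL-1 and CD44, 2 of 9 fell: Gcnt1, which fell by 0.99 ± 0.29, and the GDP-fucose transporter Slc35c1, which fell by 0.94 ± 0.29. The Gcnt1 call was lost without WT resting library 1 or WT activated library 1, and the Slc35c1 call without WT activated library 2, DKO activated library 2 or both of the shallowest libraries, leaving 0.0537 as the lowest of these adjusted p.

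**Figure D3:**
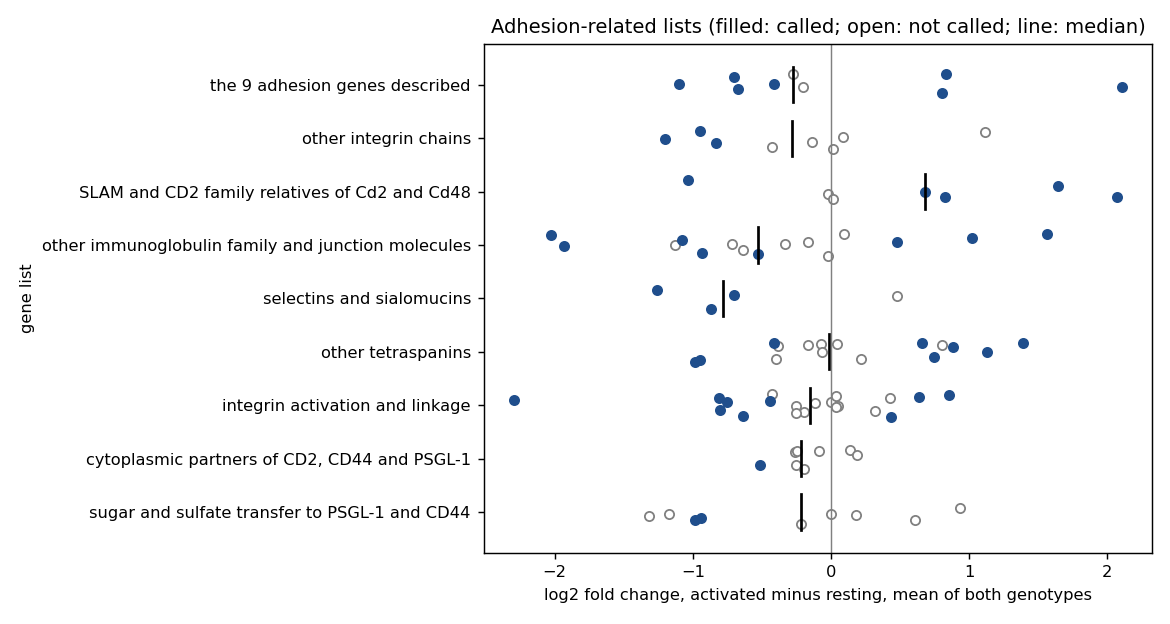
Log2 fold change on activation over both genotypes (horizontal axis) of each tested gene of the 8 adhesion lists and of the 9 genes described, filled where called, with the median as a bar. The SLAM family median lies at 0.68 and the selectin and sialomucin median at −0.78.

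A further 8 genes were named for a call in 1 of the separate genotypes. In DKO these were Slamf8 (2.46 ± 0.60), Sirpa (1.81 ± 0.48) and Tspan4 (1.55 ± 0.49), which were higher, and Flna (−0.78 ± 0.22) and Sharpin (−0.65 ± 0.22), which were lower. Slamf8 was counted low: DKO resting library 1 read 7.11 CPM, which is its floor, and DKO resting library 2 read 7.43 CPM. In WT the genes so named were Slamf7 (1.15 ± 0.39, or 0.68 without WT resting library 2), Cd151 (−1.33 ± 0.44) and Tpst2 (−0.96 ± 0.29), a sulfotransferase that modifies PSGL-1. Each of these calls was lost on leaving out at least 1 library of that genotype, and none of the interactions was called. Between genotypes, the lists had calls for Icam1 and for Cd63, which was higher in DKO by 1.39 ± 0.28 after activation (edgeR adjusted p 0.0169) and by 1.03 ± 0.21 over both states (0.0172). The Cd63 call over both states was lost in 8 of 13 alternatives, including every single library left out but DKO activated library 1, and the call after activation was lost without WT activated library 1 or 2 or DKO activated library 2 (adjusted p 0.298 to 0.543) or without both of the shallowest libraries (0.316). The monocyte and macrophage markers noted above moved with it between genotypes, with 2 of 12 called over both states, and their part in the Cd63 difference was not tested.

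Markers of other cells were set beside activation as well. Over both genotypes, 16.3% of all genes tested were called higher on activation and 13.4% lower, the shares against which the counts here stand. T cell markers (14 of 16 present, 7 lower and 1 higher of 14) summed to 2815 to 3264 CPM in WT resting, 1729 to 2421 CPM in DKO resting, 1397 to 2256 CPM in WT activated and 1668 to 2136 CPM in DKO activated libraries. Like Selplg, they were highest in both WT resting libraries. B cell markers (all 16 present, 7 lower and 4 higher of 15) summed to 10784 to 11021, 11788 to 12917, 10484 to 10918 and 9027 to 10471 CPM in the same order. NK cell markers (all 9 present, 2 higher and 0 lower of 8) summed to 289 to 315, 273 to 296, 439 to 545 and 206 to 539 CPM. The 12 tested monocyte and macrophage markers all rose, and their mean sum was 2.24 times as high after activation in WT and 4.46 times in DKO. The part of these cells in the changes of the 9 adhesion genes was not tested.

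**Figure D4:**
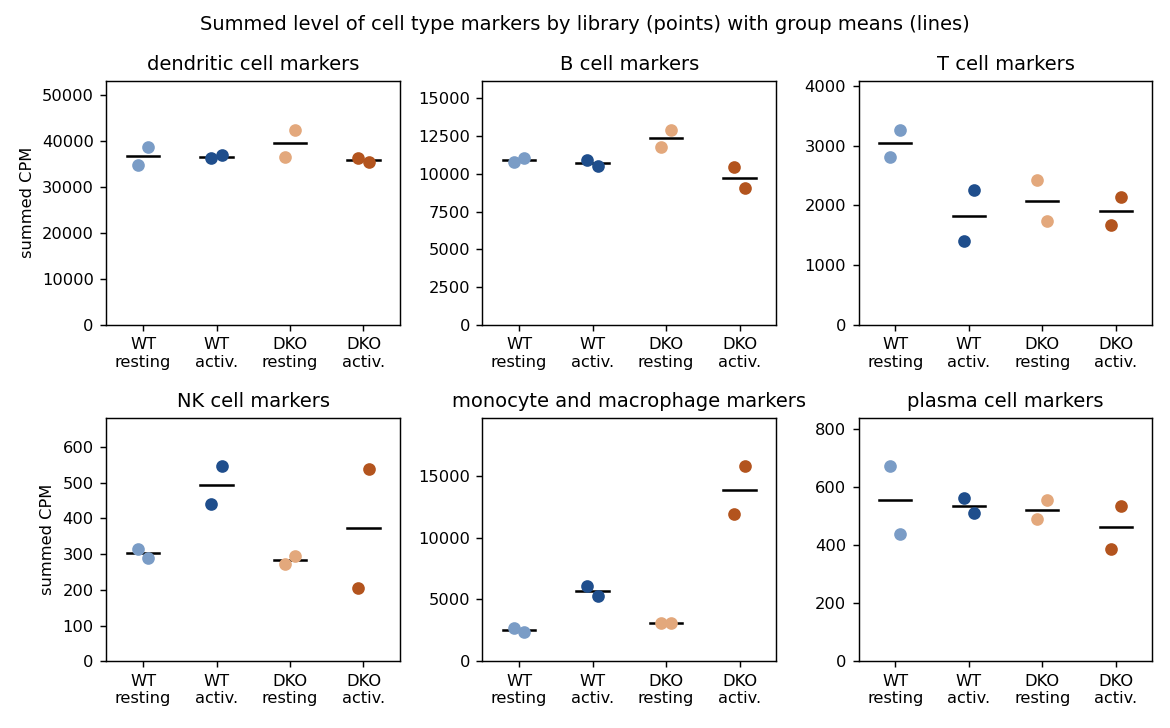
Summed CPM of 6 cell type marker lists in each of the 8 libraries (points) with group means (lines), axes from 0. Monocyte and macrophage markers run from 2349 to 15734 CPM and are highest in both DKO activated libraries.

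The gene whose log2 CPM followed each adhesion gene most closely over the 8 libraries was sought among the 5504 genes whose log2 CPM averaged at least 5. The highest Pearson r was 0.990 for Cd2 with Hmha1, 0.985 for Cd48 with Thrap3, 0.989 for Itga4 with Cirbp and 0.984 for Vcam1 with Acadl. It was 0.984 for Cd82 with Gypc, 0.977 for Cd44 with Dennd5a, 0.964 for Pecam1 with Taf8, 0.963 for Selplg with Msantd2 and 0.939 for Itgb1 with 1200014J11Rik. The points are the same 8 libraries for every gene, in a resting and an activated set. The number of genes with an r above 0.9 ran from 2 for Itgb1 and 8 for Selplg to 248 for Cd2.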

How the data were processed

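The submitters' processing notes name DESeq2, HTSeq, TopHat2, cutadapt 1.8.3 and bcl2fastq 2.17.1.14, with build mm10. The sources used here do not give the annotation, strand setting or UMI rule. A single table of all 8 libraries was deposited. Its UMI counts, raw per the file headers, were the input of all tests. Also deposited by the authors were normalized counts (a signal scaled by size factors) and values on a log2 scale, neither used here, and their log2 fold changes, test scores and p-values (raw and adjusted), quoted only as theirs, genotype signs reversed to read DKO minus WT. Every gene in the table has a count of at least 6 in some library.

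Counts were filtered with filterByExpr by group (8616 genes tested, 1796 not), scaled by TMM and fitted with group coefficients over all 8 libraries in edgeR 4.0.16 (R 4.3.3; 4 residual degrees of freedom). The quasi-likelihood F test was applied to each contrast, with Benjamini-Hochberg adjustment over all genes tested, with called meaning an adjusted p under 0.05. CPM are TMM-scaled, and an SE is the size of a log2 fold change over the square root of F. Likeness used log2 CPM with a prior count of 2. Within groups, the chi-square per degree of freedom was 2.33 to 2.86; libraries were counted as samples as labelled. On simulated data for activation over both genotypes, 200 of 8616 genes were changed. There, 51% of changes of 1 (log2) and 95% of changes of 2 were called, with 8 false calls. In the real data 2556 genes were called in this contrast, so these shares need not carry over.

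The genes described, the 8 adhesion lists and the marker lists were chosen with earlier results of these data known. Named genes are the 9 genes, up to 3 called genes per list and contrast by p, and the most alike gene of each; values of some listed genes are not reported here. Alternatives were DESeq2 1.42.0, its size factors in edgeR, all genes with a summed count of at least 1, limma-voom (limma 3.58.1) with quality weights, and leaving out each library, with the genes tested held fixed and a lone library assumed to vary like the other groups. Fits without both libraries of lowest depth (DKO resting 1 and DKO activated 2) and on 1 genotype alone were chosen after seeing the data. The labels name no batches.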

Additional observations from a re-analysis of the deposited data

How the results depend on the processing

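Replicate numbers only name libraries, and a group of 2 leaves calls sensitive to single libraries. No paired analysis was possible because the labels give no number, animal or batch that links libraries across groups. In every alternative run, Cd2 kept its calls on activation, Cd44 and Vcam1 theirs in DKO and over both genotypes, and Cd82 and Itga4 theirs over both genotypes; the 9 genes had 0 calls in the genotype and interaction comparisons. The causes of the changes below were not tested. The median change over all genes moved by less than 0.1 with scaling. Vcam1 at rest rests on 2 to 13 UMIs a library.

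Genes called on activation in WT were 1237, against 1871 in limma-voom and 504 to 1388 with 1 library left out; of the 9 genes 4 were called, against 7 and 1 to 4. In DKO the 1322 genes called became 862 in DESeq2, 553 without both libraries of lowest depth and 695 to 1192 with 1 library left out. Over both genotypes 2556 genes were called, against 1833 to 2636 in all alternatives. The genotype comparison at rest had 14 calls, against 4 in DESeq2, 8 in limma-voom, 6 without both libraries of lowest depth and 3 to 13 with 1 left out. After activation it had 15, against 23 in limma-voom, 8 without both and 6 to 36 with 1 left out, and over both states 18, against 11 and 7 to 14. The interaction had 0, against 2 and 0 to 2. 

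Values never called changed sign when 1 library was left out. On activation in DKO Selplg ran from −0.31 to 0.33 and Itgb1 from −0.17 to 0.57. In the genotype comparison at rest Pecam1 ran from −0.18 to 0.40 and Cd2 from −0.0295 to 0.15. After activation Pecam1 ran from −0.31 to 0.52, Cd2 from −0.21 to 0.22, Cd44 from −0.0630 to 0.44 and Itgb1 from −0.13 to 0.61. Over both states Cd2 ran from −0.0786 to 0.14, Pecam1 from −0.11 to 0.31, Selplg from −0.28 to 0.0391 and Vcam1 from −0.13 to 0.53. In the interaction Pecam1 ran from −0.40 to 0.42, Cd2 from −0.26 to 0.17, Itga4 from −0.0697 to 0.28 and Cd82 from −0.38 to 0.13. Without both libraries of lowest depth, the genotype value at rest was −0.0293 for Cd2 and −0.19 for Pecam1, after activation 0.00382 for Itga4, over both states −0.0736 for Cd2 and 0.0521 for Itgb1, and the interaction 0.0392 for Cd82. The interaction of Pecam1 was −0.0458 in DESeq2, −0.00742 with its size factors and −0.000137 without the filter.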
